A study of Mus musculus with 43 samples.

Results

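Type I interferon-stimulated genes were followed through reprogramming of mouse embryonic fibroblasts (MEF) to induced pluripotent stem cells (iPSC). The 9 genes, chosen by name, were Isg15, Irf7, Ifit1, Ifit3, Oasl2, Bst2, Rtp4, Usp18 and Ifi44. All 9 were found in each of the 5 deposited tables, among 38983 genes shared by the tables. Poly(A) RNA was sequenced in 43 libraries, 34 from reprogramming courses and 9 from perturbations of Myc. The cells carried reprogramming factors under doxycycline control, and doxycycline was added at the start in serum medium with LIF at low oxygen.

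The courses came from 4 cell systems, each deposited as its own table. The Mbd3f/- system carries a floxed and a null allele of Mbd3, a subunit of the chromatin remodelling and deacetylase complex NuRD, and gave 11 libraries (MEF, each of days 1 to 8, iPSC and embryonic stem cells, ES). The Gatad2a-/- system is labelled as a knockout of Gatad2a, another NuRD subunit, and gave 10 libraries, the same stages without ES. These 2 systems are called depleted below, after their labels. The wild-type systems were WT-1, sampled as 7 libraries (MEF, even days from 2 to 8, iPSC, ES), and WT-2, which shares its genetic background with Gatad2a-/- according to the labels, sampled as 6 (the same stages without ES). According to the labels, cells from day 3 on, iPSC and ES grew on irradiated human foreskin fibroblasts, and the medium was changed in the first days to one with serum replacement, LIF and 2i, inhibitors of MEK and GSK3. The sources differ on when 2i was added. Time, medium and feeder layer thus change together and cannot be told apart. The ES were Mbd3f/- and wild-type V6.5 cells, and iPSC had been passaged. Each stage of a system was 1 library. The labels do not say whether libraries are from separate cultures, and p-values below measure only the spread between these samples, which may be technical. Levels are FPKM, fragment numbers scaled to the length of the transcript and to the total of mapped fragments. Tables were normalized separately, so levels in different tables are set side by side and not tested.

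The Myc libraries also came from Mbd3f/- cells. Of these, 3 were day 4 libraries in which OSK (Oct4, Sox2 and Klf4), cMyc, or both were overexpressed. The other 6 came from Mbd3f/- OSK2nd MEF, which carry inducible Oct4, Klf4 and Sox2 with mCherry but no inducible Myc. They were a control siRNA (si-Scramble) in 2 MEF libraries and on day 7, siRNA against cMyc, nMyc and lMyc (siMyc) on days 3 and 7, and a Myc inhibitor on day 3. The OSK2nd MEF were isolated after iPSC had been injected into BDF2 blastocysts. The sources used here do not say whether cells of the host embryo remained among them.

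Some facts of the whole series bear on the values below. Mbd3 was detected in Mbd3f/- libraries at an FPKM of 36.3 to 96.5 and Gatad2a in Gatad2a-/- libraries at 8.59 to 14.7, so neither table lists its targeted gene at 0. In WT-2 up to day 8 Gatad2a was 9.17 to 11.5. For iPSC it was 38.5 in WT-2, 37.8 in Mbd3f/- and 29.9 in WT-1, against 13.4 in Gatad2a-/-. The tables were scaled separately, so these levels do not decide whether Gatad2a RNA was reduced in the Gatad2a-/- libraries. In wild-type libraries Mbd3 was 75.3 to 117 (WT-1) and 53.0 to 135 (WT-2). The sources used here do not say which part of each gene is deleted. Markers of macrophages and blood cells were high in WT-2: from MEF to day 8 all 16 listed markers were at 1 FPKM or more, with sums of 5670 to 10400, while the sums in WT-1 over the same stages were 13.5 to 60.2. The 8 pluripotency markers summed to 0.418 to 3.32 in WT-2 up to day 8, against 2720 and 5020 at day 8 of Gatad2a-/- and Mbd3f/-. All 4 MEF libraries held fibroblast markers, with sums of 5070 to 8680 over 8 genes. WT-2 before iPSC stands apart. For the members, tests and profiles that rest on it are given with and without it or by system. Tests of other genes are given only with it. The Gatad2a-/- table stands apart in scale: its FPKM summed to 1494000 to 10040000 per library, highest on day 6, and those of the other courses to 573700 to 917400. The depth of the libraries is unknown, and every library lists each of the 37 mitochondrial genes at 0, so a listed 0 can be a failed estimate.

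As background, infected cells secrete type I interferons, which bind the receptor made of Ifnar1 and Ifnar2. The kinases Jak1 and Tyk2 then pass the signal to the nucleus, where a complex that includes Irf9 switches on genes that carry an interferon-stimulated response element (ISRE) near their start. The products block viral replication, mark foreign RNA or adjust the response itself. Fibroblasts respond strongly to interferon, macrophages express many of these genes, and pluripotent stem cells are known for a weak response.

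The promoters of 4 members are shown because they carry the core letters of the ISRE, searched as GAAA, any 2 bases and GAAA. The RefSeq promoter table (GRCm38.p6, 250 bases before to 50 after the start) held 7 of the 9 members, all except Rtp4 and Usp18. On either strand, 4 of these 7 held the core, against 1131 of 32851 windows of the same length (3.44%). Isg15 had 3 overlapping matches between bases -78 and -57, counted from the start of the gene. Ifit1 had matches at -104 to -95 and -85 to -76, and Ifit3 at -156 to -147 and -122 to -113, all on the opposite strand. In Bst2 the overlapping matches spanned -130 to -121 and -124 to -115. No match of these letters was found in the windows of Irf7, Oasl2 and Ifi44. TTCNNNGAA, the core letters of the gamma-activated site, which reads the same on both strands, was found in Bst2 alone of the 7, at -136 to -128, where it overlaps the first ISRE match, against 8.3% of all windows. The 200 bases before each start are printed 5′ to 3′ on the strand of the gene, with every match of the ISRE core on either strand in capitals. The windows are chr4:156200819-156201018 (minus strand) for Isg15, chr19:34640689-34640888 (plus) for Ifit1, chr19:34583329-34583528 (plus) for Ifit3 and chr8:71537473-71537672 (minus) for Bst2, in GRCm38.p6.
Isg15: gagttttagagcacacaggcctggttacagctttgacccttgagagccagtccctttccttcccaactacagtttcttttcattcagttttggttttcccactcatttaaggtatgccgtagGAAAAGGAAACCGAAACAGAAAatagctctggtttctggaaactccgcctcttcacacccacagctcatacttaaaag
Ifit1: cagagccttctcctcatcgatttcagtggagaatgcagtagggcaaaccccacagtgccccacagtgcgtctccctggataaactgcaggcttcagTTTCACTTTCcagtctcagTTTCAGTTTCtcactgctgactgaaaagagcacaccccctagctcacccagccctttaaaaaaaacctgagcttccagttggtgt
Ifit3: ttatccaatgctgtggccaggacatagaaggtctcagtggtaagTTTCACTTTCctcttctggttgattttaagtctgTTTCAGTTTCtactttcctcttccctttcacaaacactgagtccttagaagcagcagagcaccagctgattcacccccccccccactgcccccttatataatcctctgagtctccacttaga
Bst2: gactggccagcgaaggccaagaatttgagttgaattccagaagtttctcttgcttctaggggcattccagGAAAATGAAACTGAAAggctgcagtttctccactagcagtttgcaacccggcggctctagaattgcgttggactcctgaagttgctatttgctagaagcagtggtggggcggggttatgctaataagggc

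Irf7 is the interferon regulatory factor that amplifies the response by inducing more interferon. The gene (ENSMUSG00000025498) spans bases 141262706 to 141266481 of chromosome 7 in GRCm38, minus strand. In Mbd3f/- its FPKM was 10.4 for MEF, 53.8 at day 1, 5.10 at day 2, 0.572 at day 3, 0.515 at day 4, 0.329 at day 5, 0.760 at day 6, 4.37 at day 7, 3.66 at day 8, 0.231 for iPSC and 0.149 for ES. In Gatad2a-/- it was 1.8 for MEF, 4.02 at day 1, 1.22 at day 2, between 0.112 and 0.745 on days 3 to 6, 0.926 and 0.828 on days 7 and 8, and 0.948 for iPSC. Before iPSC both depleted systems thus had their highest value on day 1 and their lowest on day 5. In WT-1 it was 1.53 for MEF, 1.49, 0.821, 0.619 and 0.648 on days 2, 4, 6 and 8, 0.147 for iPSC and 0.161 for ES. In WT-2 it was 459 for MEF, 174, 51.6, 127 and 58.4 on days 2, 4, 6 and 8, and 0.384 for iPSC. Before iPSC every WT-2 value but that of day 4 was above the highest value of any other system, the 53.8 of Mbd3f/- on day 1.

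Isg15 encodes a ubiquitin-like protein that is attached to other proteins after interferon, and Usp18 is the protease that removes it and also damps the receptor. Isg15 (ENSMUSG00000035692, chromosome 4 at 156199424 to 156200818, minus strand) is the member with 3 ISRE core matches above. Its FPKM in Mbd3f/- was 47.7 for MEF, 161 at day 1, 16.4 at day 2, 1.66 at day 3, 0.222 at day 4, 0.475 at day 5, 1.43 at day 6, 7.10 at day 7, 6.09 at day 8, 0.162 for iPSC and 0.264 for ES. In Gatad2a-/- it was 5.88 for MEF, 9.85 at day 1, 1.67 at day 2, between 0.620 and 1.15 on days 3 to 6, 1.70 and 2.44 on days 7 and 8, and 0.511 for iPSC. The order of the stages was alike in the 2 systems, with a peak on day 1, a low stretch in the middle and higher values on days 7 and 8. In WT-1 it was 7.04 for MEF, 5.49, 4.18, 2.98 and 4.34 on days 2, 4, 6 and 8, 0.403 for iPSC and listed at 0 for ES. In WT-2 it was 485 for MEF, 249, 245, 498 and 182 on those days, and 0.266 for iPSC. The WT courses, which have no day 1 library, stayed within a narrower span at the stages sampled up to day 8. The level was under 1 in every iPSC and ES library.

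Usp18 (ENSMUSG00000030107, chromosome 6 at 121245906 to 121270917, plus strand) shared the day 1 peak. Its FPKM in Mbd3f/- was 5.78 for MEF, 31.2 at day 1, 1.86 at day 2, 0.119, 0.0271, 0.0134 and 0.0978 on days 3 to 6, 3.09 at day 7, 2.31 at day 8, 0.154 for iPSC and 0.0277 for ES. In Gatad2a-/- only day 1 exceeded 1 FPKM, at 1.15, and the lowest course value was 0.0549 at day 4. In WT-1 it was highest in MEF at 0.742 and lowest before iPSC on day 8 at 0.130, and in WT-2 it ranged from 31.7 at day 8 to 105 for MEF and was listed at 0 for iPSC.

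Ifit1, which binds foreign RNA, and Ifit3, of the same gene family, lie on the plus strand of chromosome 19. Their positions are 34640871 to 34650009 and 34583531 to 34588731. Mouse Ifit3 has a near-identical copy, Ifit3b, so the split of fragments between them is uncertain. Ifit3 did not share the day 1 peak: in Mbd3f/- it was 9.75 for MEF and 6.32 at day 1, and in Gatad2a-/- 1.24 and 0.800. Ifit1 was 4.61 for MEF and 8.17 at day 1 in Mbd3f/-, and 1.24 and 1.23 in Gatad2a-/-. By day 4 both genes were under 0.15 FPKM in the 2 depleted systems, with Ifit1 at 0.0436 and 0.146 and Ifit3 at 0.0138 and listed at 0. The late return was small in Mbd3f/-, to 0.323 for Ifit1 and 0.419 for Ifit3 at day 8, while in Gatad2a-/- it reached 0.940 and 0.702 on that day. In WT-1 Ifit1 lay between 0.340 and 1.22 and Ifit3 between 0.986 and 5.60 up to day 8. In WT-2 the pair ranged from 66.5 to 380 FPKM up to day 8, and both were at 0.0304 or listed at 0 for iPSC.

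Oasl2, a relative of the double-stranded RNA sensors of the Oas family, and Rtp4, a chaperone of membrane receptors that also binds viral RNA, resembled Isg15 in the depleted systems. Oasl2 (chromosome 5 at 114896936 to 114912234, plus strand) was 11.7 in Mbd3f/- MEF, 42.7 at day 1, 3.30 at day 2, 0.122 at day 4 and 3.86 at day 8, and in Gatad2a-/- 2.07, 6.96, 0.895, 0.213 and 2.17 at those stages. Rtp4 (chromosome 16 at 23520291 to 23614222, plus strand) was 8.09, 27.2, 3.00, 0.0309 and 4.26 in Mbd3f/- and 0.990, 3.56, 0.450, 0.0624 and 1.09 in Gatad2a-/-. The day 8 values of both genes in Gatad2a-/- were slightly above those in its own MEF. In WT-1 they differed from Isg15, since Oasl2 was 0.623 for MEF and 1.34 to 2.09 on days 2 to 8, and Rtp4 was 1.88 for MEF and 2.17 to 2.67 on those days. Ifi44 (chromosome 3 at 151730922 to 151749960, minus strand), an interferon-induced protein whose function is less well known, behaved like Ifit1: 8.50 in Mbd3f/- MEF, 9.27 at day 1, 1.06 at day 2, 0.0161 at day 4 and 0.116 at day 8. In Gatad2a-/- it lay between 0.0108 and 1.52 up to day 8, and in WT-1 between 0.273 and 1.14. All 3 genes were far higher in WT-2 up to day 8, with ranges of 77.7 to 218 for Oasl2, 67.7 to 126 for Rtp4 and 19.1 to 128 for Ifi44.

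Bst2 (ENSMUSG00000046718, chromosome 8 at 71534255 to 71537456, minus strand) encodes tetherin, a membrane protein that holds budding virus particles on the cell surface. Its course was unlike that of the other 8 members. In Mbd3f/- its FPKM was 199 for MEF, 478 at day 1, 179 at day 2, 156 at day 3, 228 at day 4, 264 at day 5, 263 at day 6, 250 at day 7, 144 at day 8, 13.4 for iPSC and 23.7 for ES. In Gatad2a-/- it was 13.9 for MEF, 51.8 at day 1, 40.9 at day 2, 57.4, 68.2, 97.6, 72.5 and 57.5 on days 3 to 7, 35.6 at day 8 and 9.28 for iPSC. It did not show the middle low of the other members, and in Gatad2a-/- its highest day was day 5 and its lowest stage before iPSC was MEF. In WT-1 it was 33.6 for MEF, 33.9, 67.0, 134 and 201 on days 2, 4, 6 and 8, 74.0 for iPSC and 99.2 for ES, so each day was higher than the one before. In WT-2 it ranged from 308 at day 4 to 889 for MEF and was 48.2 for iPSC. Its Pearson r with the mean profile of the members over the 34 course libraries, each gene centred within its system, was 0.598, and for the other 8 members it was 0.942 to 0.977. Without the 6 WT-2 libraries it was 0.372 for Bst2 and 0.874 to 0.979 for the others. These correlations describe the profiles and include each gene in the mean.

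**Figure D1:**
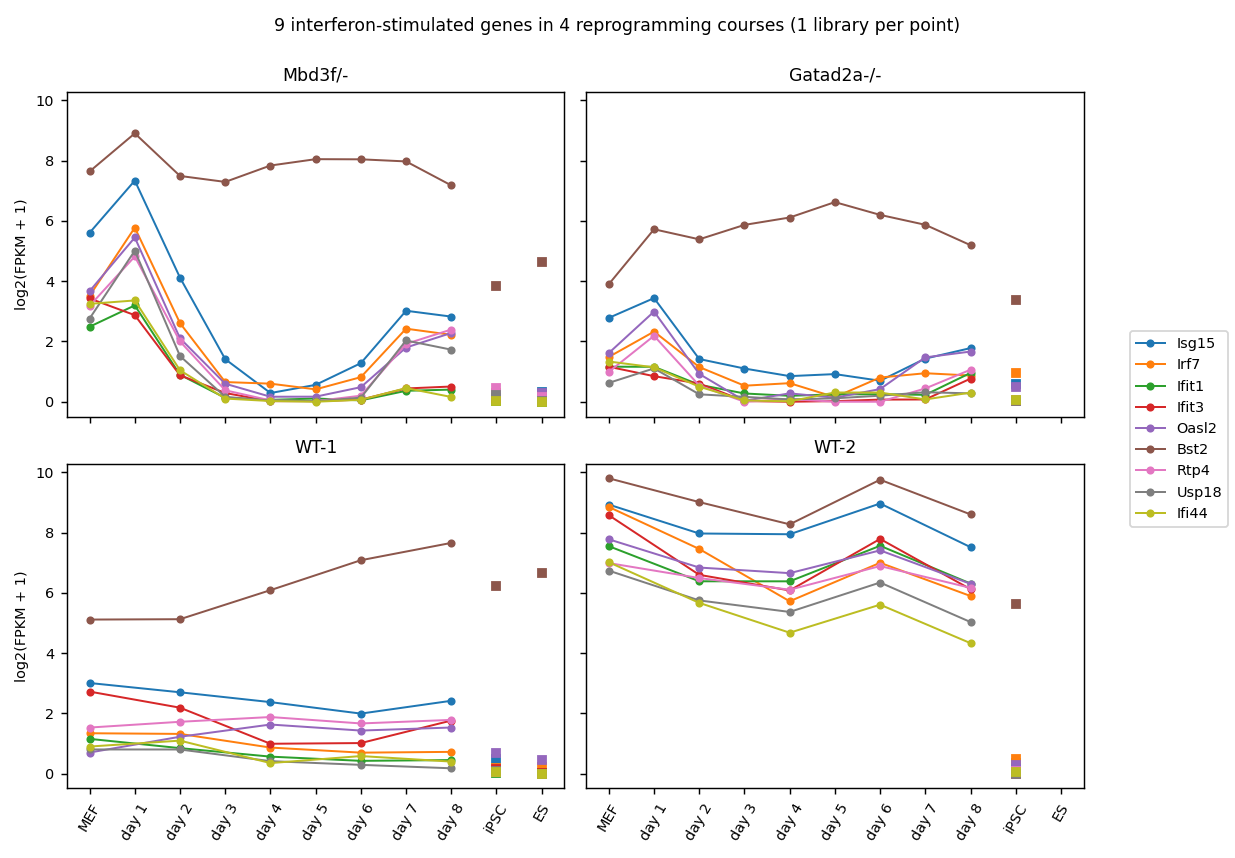
FPKM of the 9 members on the log2(FPKM + 1) scale (vertical axis) against stage (horizontal axis) in the 4 systems, 1 library per point, with lines from MEF to day 8 and squares for iPSC and ES. In both depleted systems the members other than Bst2 dip in the middle of the course, while WT-2 stays high until iPSC.

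The plot of levels by stage shows the first event, a day 1 peak. Differences within a system are on the log2(FPKM + 1) scale, and with 1 library each they have no test. On day 1 of Mbd3f/- 8 of 9 members were above MEF (median difference 1.64), and 6 were past 2-fold, where 20.5% of genes were. Irf7 differed by 2.26 and Usp18 by 2.25. In Gatad2a-/- 6 of 9 were above MEF, and 3 were past 2-fold (Bst2 1.82, Oasl2 1.37, Rtp4 1.20), where 14.5% of genes were. The count in Mbd3f/- is well above the share of all genes there. The WT systems had no day 1 library, so a peak on that day could not be seen in them.

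From day 1 to day 2 all 9 members were lower in both systems. In Mbd3f/- all 9 were past 2-fold, with a median difference of -2.82, where 5.42% of genes were lower and 2.27% higher by that much. In Gatad2a-/- 4 were (Oasl2 -2.07, Isg15 -2.02, Rtp4 -1.65, Irf7 -1.18), where 3.3% of genes were, with 7.55% higher.

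The lowest values followed on days 3 to 6. In Mbd3f/- 8 members had their lowest course value between days 4 and 6 and Bst2 had it on day 8. On day 4 the 8 members other than Bst2 lay between 0.0138 and 0.515 FPKM in Mbd3f/-, and between a listed 0 and 0.802 in Gatad2a-/-. Relative to MEF, 8 members were lower past 2-fold in Mbd3f/- on day 4 (27.8% of genes) and 4 in Gatad2a-/- (19.3%), while Bst2 was higher by 0.20 and 2.21 (19.5% and 21.5% of genes were higher past 2-fold).

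On days 7 and 8 part of the signal came back. In Mbd3f/- all 9 members were higher on day 7 than on day 4, and 5 were past 2-fold (Isg15 2.73, Usp18 1.99, Rtp4 1.88, Irf7 1.82, Oasl2 1.63), where 20.1% of genes were higher and 8.68% lower by that much. In Gatad2a-/- 8 of 9 were higher, and Oasl2 alone was past 2-fold at 1.19, where 14.0% of genes were and 8.1% were lower. Of the 9 members, 3 reached 1 FPKM in either of these Gatad2a-/- libraries and 6 in either of those of Mbd3f/-. Members under 1 FPKM in both libraries could not pass the fold. From day 6 to day 8, 3 members of Gatad2a-/- were higher past 2-fold (Oasl2 1.24, Isg15 1.08, Rtp4 1.06; 12.2% of genes), and Bst2 differed by -1.01 (5.34% of genes were lower past 2-fold). Only 4 members reached 1 FPKM on either day. The FPKM of these 2 libraries summed to 10040000 and 4819000, and after quantile normalization within the table no member was higher past 2-fold (Oasl2 0.98, Rtp4 0.86, Isg15 0.80), while Bst2 was at -1.05. On day 8 the members were still below MEF in all 9 cases in Mbd3f/- and in 6 of 9 in Gatad2a-/-. In iPSC they were lower again than on day 8, in 9 of 9 and 8 of 9 cases.

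Macrophage and blood markers were lower on later days too, but not at every step with the members. In Mbd3f/- the summed FPKM of the 16 markers was 1910 for MEF, 889 at day 1, 208 at day 2, 83.2 at day 3 and 42.7 at day 4, so it was lower on day 1 than in MEF while 8 of 9 members were higher. From day 1 to day 4 both were lower at each step, with member means of log2(FPKM + 1) of 5.19, 2.52, 1.23 and 1.01 and marker means of 4.84, 2.98, 1.96 and 0.99. On days 7 and 8 the sum was 75.9 and 78.2, above that of day 4, with 2 of 16 markers at 1 FPKM or more. Most of the sum on day 8 was Laptm5 at 45.3 and Cd68 at 31.3. The 8 members other than Bst2 were higher on those 2 days than on day 4, when 3 of 16 markers reached 1 FPKM. In Gatad2a-/- the sum was 393 for MEF, 504 at day 1, 423 at day 2, 138 at day 3, 62.2 at day 4 and 87.4 at day 8, so there it was higher on day 1 than in MEF, as 6 of 9 members were. In WT-2 both were high together, and in bulk samples fewer cells of a type and less RNA per cell cannot be told apart. The part of macrophages in the level of the members was not tested.

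**Figure D2:**
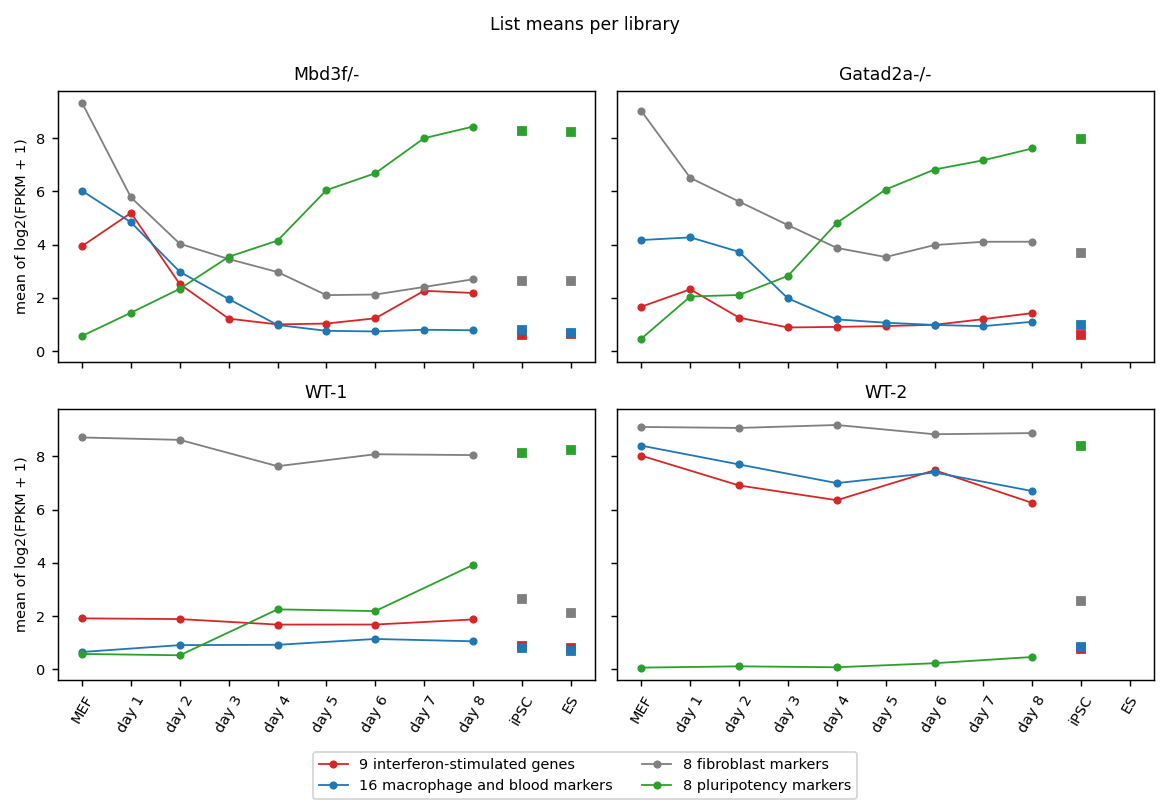
Mean log2(FPKM + 1) per library (vertical axis) of the 9 members, 16 macrophage and blood markers, 8 fibroblast markers and 8 pluripotency markers against stage in the 4 systems, 1 library per point. In Mbd3f/- the member mean goes from 3.95 for MEF to 5.19 at day 1 while the macrophage mean goes from 6.02 to 4.84, and on days 7 and 8 the member mean is above 2 while the macrophage mean is near 0.8.

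The comparison of stages over systems was fitted with limma on log2(FPKM + 1) over 24 libraries and 20305 genes, with Benjamini-Hochberg adjustment over all of them and a threshold of 0.05. In the depleted systems (n = 2) no member passed on day 2 relative to MEF, where 8.19% of genes fell and 9.97% rose, and none had an unadjusted p under the same threshold. The changes ran from -1.55 ± 1.14 (SE) for Ifit3 to 0.67 ± 0.97 for Bst2. On day 4 Isg15 fell by 3.63 ± 1.28 (limma adjusted p = 0.049). It was the only member called, where 15.5% of genes fell, so the count is near that share. Oasl2 (-2.42 ± 1.22), Ifit3 (-2.28 ± 1.14) and Ifi44 (-2.27 ± 1.00) had the next largest values, without a call, and Bst2 had 1.20 ± 0.97. The call of Isg15 was lost without the system block, without the low-value filter and after quantile normalization. Leaving out either depleted system leaves 1 library against 1 library, with the spread taken from the WT systems alone. Taken singly, Isg15 differed by -5.32 in Mbd3f/- and by -1.93 in Gatad2a-/-. Without WT-1 or without WT-2, 6 members were called, with the spread taken from the depleted systems alone. In the same comparison all 8 fibroblast markers fell (median -5.34), 11 of 16 macrophage and blood markers fell (median -4.33) and 7 of 8 pluripotency markers rose, and the part of these in the change of Isg15 was not tested. On day 8 no member was called (15.3% of genes fell), none had an unadjusted p under the threshold, and the median of the members was -0.96 beside 0.23 for all genes (0.10 after quantile normalization).

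In the WT systems (n = 2) no member was called between MEF and day 8, and none had an unadjusted p under the threshold; of all genes 0.719% fell and 0.438% rose. The 2 systems differed in level throughout: WT-1 had a member median of 0.986 to 1.89 FPKM from MEF to day 8 and WT-2 one of 67.7 to 218. In WT-2 all 9 members were lower on day 4 than in MEF, 7 of them past 2-fold (6.35% of genes were lower and 5.05% higher), all 9 were higher on day 6 than on day 4, and all 9 were lower on day 8 than on day 6. Of these, 5 were past 2-fold from day 4 to day 6, where 3.23% of genes were and 4.4% were lower, with Ifit3 at 1.71 and Bst2 at 1.48. In WT-1 the one member past 2-fold on day 4 relative to MEF was Ifit3 at -1.73, where 6.78% of genes were lower by that much. In WT-2 from day 6 to day 8, 8 members were past 2-fold downward, where 2.13% of genes were. The summed macrophage markers moved the same way, 5670 at day 4, 10400 at day 6 and 6110 at day 8. Most of each sum was Lyz2, a lysozyme gene of macrophages, at 3240, 6940 and 4160. The mean log2(FPKM + 1) of the 16 markers moved less, at 6.99, 7.39 and 6.70, beside 6.35, 7.48 and 6.25 for the members. Ifnb1, which encodes interferon beta, was listed at 0 or under 0.04 FPKM in all other course libraries, and in WT-2 it was 3.31 for MEF, 0.270 at day 2, 0.133 at day 4, 0.374 at day 6 and listed at 0 at day 8.

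Between day 8 and iPSC of the WT systems 5 members fell, where 15.7% of genes fell and 19.6% rose. Isg15 changed by -4.55 ± 1.28 (limma adjusted p = 0.014), Rtp4 by -3.91 ± 0.97 (adjusted p = 0.0074), Ifit3 by -3.87 ± 1.14, Oasl2 by -3.44 ± 1.22 and Ifit1 by -3.35 ± 1.17. The other 4 had values of -2.97 (Irf7), -2.56 (Usp18), -2.32 (Ifi44) and -2.20 (Bst2), with adjusted p of 0.073 to 0.096. These sizes came mostly from WT-2, where Isg15 differed by -7.17 and Usp18 by -5.03, against -1.93 and -0.09 in WT-1. The member median was -6.03 in WT-2 and -0.85 in WT-1. A fit without either WT system compares 1 library with 1 library. Its spread comes from the depleted systems alone, so its calls do not measure the spread of the WT systems. Without Mbd3f/- 0 members were called and without Gatad2a-/- 2, with the spread taken from the WT systems alone.

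The difference between the classes was tested as the depleted change from MEF minus the WT change. No member passed on day 4 or on day 8, and none had an unadjusted p under the threshold on either day, while 5.33% and 7.73% of genes were called lower and 1.12% and 8.4% higher. On day 4 the values ran from -2.82 ± 1.81 for Isg15 and -2.32 ± 1.73 for Oasl2 to 1.48 ± 1.37 for Bst2. On day 8 they lay between -0.89 ± 1.81 for Isg15 and 0.83 ± 1.71 for Irf7. Those of Ifit3 on both days and of Irf7 at day 4, all within 0.17 of 0, changed sign with the pseudocount or scaling, and also when a system was left out. With 2 systems a class and standard errors of 1.37 or more, a difference in loss between the classes was not detectable for any member; this does not show that the losses were alike.

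All 9 members fell between MEF and iPSC over the 4 systems (n = 4), where 23.9% of genes fell and 29.0% rose. Isg15 changed by -4.67 ± 0.90 (limma adjusted p = 0.00072), Ifit3 by -3.90 ± 0.81 (adjusted p = 0.0012), Irf7 by -3.31 ± 0.85, Ifi44 by -3.09 ± 0.71 and Ifit1 by -3.06 ± 0.83. Rtp4 and Oasl2 followed at -3.02 each, Usp18 at -2.65 ± 0.77 and Bst2 at -1.85 ± 0.69 (adjusted p = 0.036). The systems agreed in sign for the 8 members other than Bst2, which was higher in iPSC than in MEF in WT-1 by 1.12. Oasl2 was almost level in WT-1, at -0.02. Without WT-2, Isg15, Ifit3, Rtp4, Ifi44 and Ifit1 stayed called, and Irf7, Oasl2, Usp18 and Bst2 did not. Without Gatad2a-/- 5 members were called, and without Mbd3f/- or without the system block none was. In each fit that left out a system, the spread came from the other class alone.

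In the iPSC libraries the 8 members other than Bst2 lay between a listed 0 and 0.948 FPKM, and in the ES libraries between a listed 0 and 0.351. Bst2 stayed above them at 9.28 to 74.0 for iPSC and at 23.7 and 99.2 for ES. No member differed between ES and iPSC (0 of 20410 genes were called in either direction, and no member had an unadjusted p under the threshold). The fitted values of 0.70 to 1.23 were all positive, because ES was sampled in only 2 tables and the fit borrows the level of a table from all its stages. In Mbd3f/- and in WT-1 alike, ES had 3 members higher and 6 lower than iPSC of the same table, and Bst2 had the largest difference in Mbd3f/-, 0.78.

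**Figure D3:**
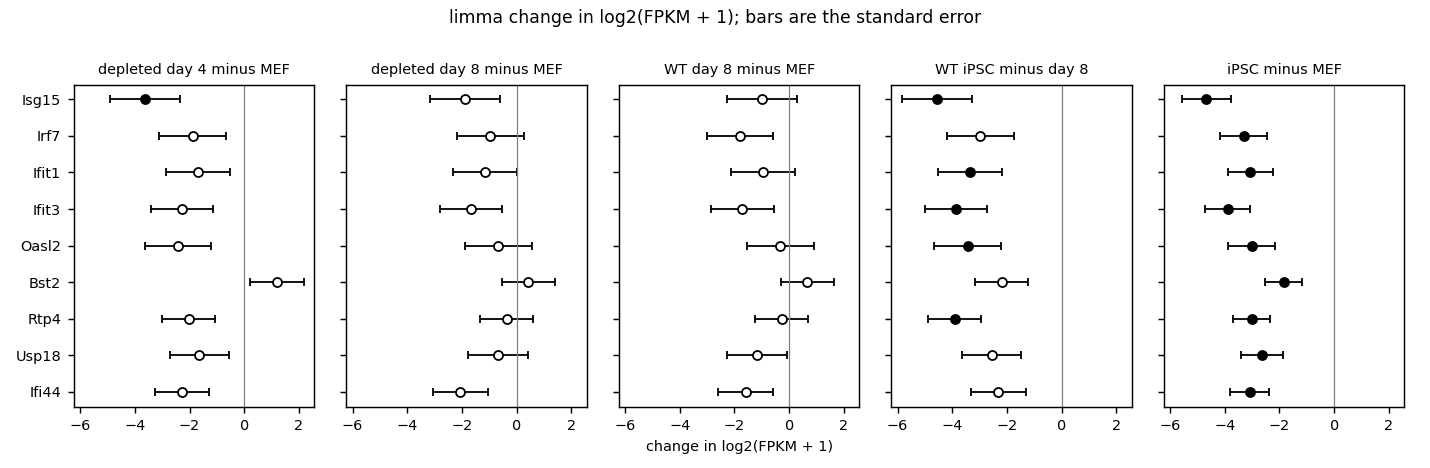
Fitted change of each member on the log2(FPKM + 1) scale (horizontal axis) with its standard error for 5 comparisons, filled where the limma adjusted p is under 0.05. All 9 members are filled for iPSC minus MEF, 5 for WT iPSC minus day 8, Isg15 alone for depleted day 4 minus MEF, and none for the other comparisons.

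Other genes of the pathway were read from fixed lists. The tests of these lists are from the fit with all 4 systems and were not repeated without WT-2. Of all genes, 23.9% fell and 29.0% rose between MEF and iPSC. Between MEF and day 4 of the depleted systems 15.5% fell and 13.1% rose. Among ligands, all 11 interferon genes listed were too low to be tested. Among receptors and signal carriers, 4 of 7 fell between MEF and iPSC and 0 rose (median -1.60, beside 0.14 for all genes), with the receptor subunit Ifnar2 at -2.58 ± 0.26 and the kinase Jak1 at -2.45 ± 0.15. Between MEF and day 4 of the depleted systems 4 of the 7 fell and 0 rose, with Ifnar2 at -1.66 ± 0.37 (limma adjusted p = 0.0047). Irf9 kept a level of 1.66 to 24.7 in Mbd3f/- and 11.8 for iPSC, so it was detected in iPSC while the members other than Bst2 were under 1 FPKM.

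Sensors of foreign nucleic acid fell in 7 of 13 cases between MEF and iPSC, with 0 rising (median -1.49), where 23.9% of genes fell. Their largest changes were those of the kinase Ikbke (-2.98 ± 0.36) and of Tmem173, the adaptor STING (-2.73 ± 0.21). Tmem173 also differed between the classes, by -3.19 ± 0.41 at day 4 (limma adjusted p = 0.00096) and by -4.16 ± 0.41 at day 8 (adjusted p = 5.9e-05), where none of the 9 members was called. Its FPKM was 21.2 in Mbd3f/- MEF and 0.533 at day 4, 12.3 and 0.600 in Gatad2a-/-, 14.4 and 11.8 in WT-1, and 15.0 and 12.3 in WT-2. These levels are from separately normalized tables. Of all genes, 5.33% were called lower in the class difference at day 4 and 7.73% at day 8. In the same class differences 7 of 8 fibroblast markers were called lower on each day (medians -5.16 and -6.0). Of the 8 pluripotency markers, 3 were called higher at day 4 and 7 at day 8. The part of these in the difference of Tmem173 was not tested.

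Of 41 other interferon-stimulated effectors, 23 fell and 3 rose between MEF and iPSC (median -1.22), where 23.9% of genes fell and 29.0% rose. Lgals3bp, a secreted glycoprotein, fell by 5.30 ± 0.62 and Ifi27l2a by 4.75 ± 1.12, while Ifitm1, a membrane protein that hinders viral entry, rose by 3.16 ± 0.63 and Phf11d by 2.63 ± 0.64. Ifitm1 was 54.2 in Mbd3f/- MEF, 1.5 at day 4, 278 at day 8 and 125 for iPSC, and Phf11d 2.42, 2.98, 59.3 and 65.2. On day 4 of the depleted systems 11 of the 41 fell and 0 rose, beside 1 of the 9 members, where 15.5% of genes fell and 13.1% rose. In class I antigen processing, 7 of 10 fell and 0 rose between MEF and iPSC (median -1.77), led by B2m, the light chain of class I molecules, at -5.64 ± 0.48, and the immunoproteasome subunit Psmb8 at -3.91 ± 0.62. Of 4 tested other interferon regulatory factors, Irf2 (-3.53 ± 0.31) and Irf5 (-2.01 ± 0.53) fell. Negative regulators were mixed, with 3 of 6 falling (Trex1 -1.70 ± 0.42) and 2 rising (Socs3 1.29 ± 0.49, Ptpn2 0.94 ± 0.16). The 2 rising are near the 29.0% of all genes that rose. Beside these, 14 of 16 macrophage and blood markers fell between MEF and iPSC (median -3.98), all 8 fibroblast markers fell, and all 8 pluripotency markers rose. WT-1 did not share the fall of the macrophage and blood markers, whose mean log2(FPKM + 1) there was 0.655 for MEF and 0.787 for iPSC. It went from 8.399 to 0.83 in WT-2, from 6.019 to 0.813 in Mbd3f/- and from 4.175 to 1.0 in Gatad2a-/-.

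The genes most like the members were ranked by Pearson r with the mean member profile over the 34 course libraries, centred within each system. The first 10 outside the list were Gbp3 (0.969), Ifi203 (0.954), Mx2 (0.952), Ifi204 (0.950), Cd200r4 (0.949), Irgm2 (0.947), Ifih1 (0.943), Ccl5 (0.943), Igtp (0.939) and Ifi202b (0.938). Ifih1, the RNA sensor MDA5, and the dynamin-like antiviral Mx2 come from the lists above; in Mbd3f/- Mx2 was 3.03 for MEF, 3.13 at day 1, 0.0193 at day 4 and 0.599 at day 8. Libraries of a system share a table, and the points of the 4 systems are not independent, so these values are a description. Without WT-2 the first 10 shared 8 of these genes, led by Ifi203 (0.948), Mx2 (0.939) and Gbp3 (0.938), and Ccl5 and Ifi202b gave way to Epsti1 and Pyhin1.

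In the Myc libraries the targeted genes were looked at first, and they did not follow every label. Myc was 24.8 FPKM in the library labelled OSK, 3.16 in that labelled OSK and cMyc and 0.510 in that labelled cMyc, so the 2 libraries labelled with overexpressed cMyc held less mouse Myc than the one without. The sources used here do not say how the cMyc transgene was built. Sox2 was 39.6, 312 and 0.821 in the same order, and Pou5f1 36.1, 2.69 and listed at 0. With siMyc, Myc was 29.2 at day 3 and 11 at day 7, against 30.5 and 26.5 in the si-Scramble MEF and 16.2 with si-Scramble on day 7. Mycn was 1.87 at day 3 and 0.927 at day 7, against 5.11 and 4.43 in MEF and 1.47 with si-Scramble. Mycl, also targeted by the siRNA, was higher with siMyc, at 3.93 on day 3 against 1.65 and 1.29 in MEF, and at 3.31 against 1.03 on day 7. The directions below are therefore those between libraries as labelled.

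On day 4 the members were high in the library labelled OSK and low in both libraries labelled with cMyc. Isg15 was 104 FPKM with OSK, 1.73 with OSK and cMyc and 0.524 with cMyc. Irf7 was 18.2, 0.811 and 0.749, Oasl2 was 38.1, 0.370 and 0.122, and Rtp4 was 28.3, 0.126 and 0.180. Bst2 again kept the highest level, at 167, 78.6 and 42.7. Between the libraries labelled OSK and cMyc and OSK all 9 members were lower past 2-fold, from -5.26 for Isg15 to -1.08 for Bst2 (median -2.95), where 19.4% of genes were lower and 12.0% higher by that much; 1 library each gives no test. Of the other effectors measured at 1 FPKM or more in either library, 25 of 34 were lower past 2-fold and 0 higher, and so were 8 of 10 class I genes, while 0 of 8 fibroblast markers were. Irf9 was 34.9 against 4.13. The macrophage markers summed to 87.6 with OSK and 28.2 with OSK and cMyc. Of the 16 markers, 3 were listed at 0 with OSK and 9 with OSK and cMyc. Between the libraries labelled OSK and cMyc and cMyc no member was past 2-fold (10.4% of genes were higher and 4.75% lower), and 7 were higher and 2 lower. Only 2 members reached 1 FPKM in the first of these libraries and 1 in the second. A member under 1 FPKM in both cannot pass the fold, so for most members this count could only be 0.

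With si-Scramble the members were higher on day 7 of OSK2nd reprogramming than in MEF. Isg15 was 6.16 and 6.24 in the MEF libraries and 32.1 at day 7, Irf7 2.5 and 3.01 against 22.4, and Ifit1 0.689 and 0.754 against 7.20. All 9 were past 2-fold (median 2.01), where 8.01% of genes were and 5.96% were lower. Day 7 was 1 library, so this has no test. The summed macrophage markers went the other way, 107 and 126 for MEF and 54.0 at day 7.

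With siMyc on day 7, Isg15 was 60.1, Oasl2 39.1 against 12.1, Bst2 275 against 107 and Rtp4 19.9 against 6.75. In all, 8 of 9 members were higher than with si-Scramble, and 5 were past 2-fold (Oasl2 1.61, Rtp4 1.43, Bst2 1.36, Ifit1 1.16, Usp18 1.14), where 3.87% of genes were and 4.87% were lower. Irf7 did not take part, at 20.1 against 22.4. Beside them 7 of 10 class I genes were higher past 2-fold, with B2m at 6420 against 2620, and Irf9 was 32.2 against 20.5. Of the other effectors 5 of 32 were higher past 2-fold and 3 lower, and Ifitm1 was 15.1 against 106. Macrophage markers summed to 38.7 against 54.0, and 6 of 8 fibroblast markers were lower past 2-fold. The part of these differences in cell markers in the levels of the members was not tested.

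On day 3 neither treatment has a control of its own day, so the si-Scramble MEF are set beside it and time and treatment cannot be told apart. With siMyc no member was past 2-fold (5.18% of genes were higher and 9.16% lower), with Isg15 at 7.12, Irf7 at 3.28 and Bst2 at 44.9. With the Myc inhibitor 8 of 9 members were lower and Isg15, at 1.83, was the only one past 2-fold (-1.35), where 10.8% of genes were lower by that much. Of the 6 OSK2nd libraries, that labelled siMyc day 7 had the highest mean log2(FPKM + 1) of the members and that labelled Myc inhibitor the lowest.

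**Figure D4:**
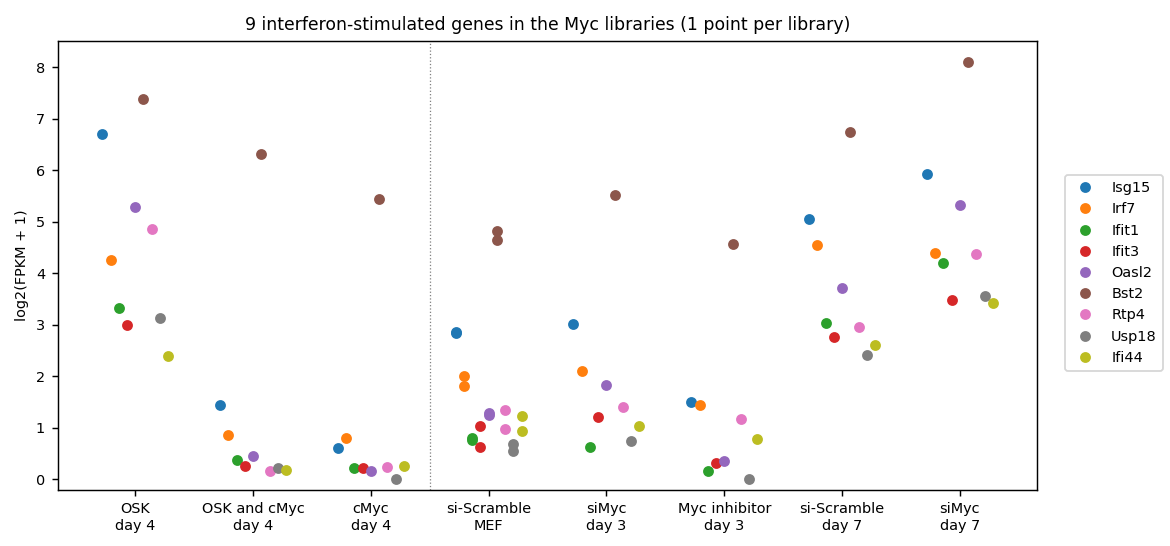
FPKM of the 9 members on the log2(FPKM + 1) scale (vertical axis) in the 9 Myc libraries (horizontal axis), 1 point per gene and library. The libraries labelled OSK day 4, si-Scramble day 7 and siMyc day 7 hold the higher values. Those labelled cMyc, OSK and cMyc, and Myc inhibitor hold all members except Bst2 under 2 FPKM.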

How the data were processed

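Poly(A) RNA was sequenced after a library kit (TruSeq RNA, per the labels' protocols) that does not mark strand. The authors deposited 5 tables of FPKM. Listed are Cufflinks 2.2.1, the aligner TopHat2 2.0.10, CASAVA 1.8.2 and mm10 as build, per the submitters' processing notes. No source used here gives the annotation release or whether strand was used. Estimated FPKM keep no depth, so no counting interval is given. The number of value columns without a sample was 0, and 19 identifiers on more than 1 line were summed.

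The log2(FPKM + 1) values, which understate changes of low genes, were fitted in R 4.3.3 by limma 3.58.1. Genes entered the fit if 2 or more libraries reached 1 FPKM. Class by stage means were used with the system (which is the table) as block, with the trend and robust options, and p-values were adjusted by Benjamini-Hochberg over all genes. The script was tested on simulated data. Comparisons of single libraries, within a system and in the Myc table, have no test: a gene counts as past 2-fold where log2(FPKM + 1) differs by at least 1, among genes at 1 FPKM or more in either library. A member under 1 FPKM in both libraries could not reach this fold, and the shares of all genes leave such genes out.

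All 9 members were named. Of the other lists, called genes with the largest changes were named, 2 in each direction. Irf9, Tmem173, Mx2, Lyz2, Ifnb1, B2m, Ifitm1 and Phf11d were given levels after their values were seen, as were Laptm5, Cd68, Sox2 and Pou5f1. Members and lists were chosen with earlier results of these data known. Coordinates are from GENCODE M21 (GRCm38). The alternatives tried were the pseudocount, the filter, quantile normalization, the block, the libraries fitted and leaving out each system; after seeing the data, the likeness was repeated without WT-2 and the Gatad2a-/- differences after quantile normalization. Results for some listed genes are not reported here.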

Additional observations from a re-analysis of the deposited data

How the results depend on the processing

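Counts of members called are given against the values of the report. For depleted day 4 minus MEF (1 called) the count was 5 with a pseudocount of 0.1, 0 without the filter on low values, 0 after quantile normalization, 0 without the system block, 3 with only the compared stages, and 0 to 6 when a system was left out (0 without Mbd3f/- or Gatad2a-/-, 6 without WT-1 or WT-2). For depleted day 2 (0 called) it was 1 with only the compared stages, and for depleted day 8 (0 called) 1 with a pseudocount of 0.1, 1 with only the compared stages and 0 to 1 when a system was left out. For WT iPSC minus day 8 (5 called) it was 8 with a pseudocount of 0.1, 3 without the filter, 0 without the system block, 2 with only the compared stages and 0 to 9 when a system was left out. For iPSC minus MEF (9 called) it was 0 without the system block, 3 with only the compared stages and 0 to 9 when a system was left out. Where a system was left out, the other system of its class had 1 library a stage and added nothing to the residual spread. That spread then came from the other class alone, with 5 residual degrees of freedom against 10. A change within the reduced class was then between 1 library and 1 library. The cause of the shifts in these counts was not tested.

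For WT day 8 minus MEF, the class differences on days 4 and 8 and ES minus iPSC, 0 members were called under every alternative run. In the Myc table, the count past the fold for OSK and cMyc minus cMyc (0) was 1 with a pseudocount of 0.1 and 2 at 1.5-fold. For siMyc minus si-Scramble on day 7 (5) it was 8 at 1.5-fold, for siMyc on day 3 (0) 1 at 1.5-fold, and for the inhibitor (1) 3 with a pseudocount of 0.1 and 2 at 1.5-fold. Of 800 values of single members under alternatives, 653 kept their direction and side of the threshold, 62 lost their call, 29 gained one, 56 changed sign without a call, and 0 called values changed sign. ES minus iPSC with only the compared stages was not run, as it leaves no residual degrees of freedom. The fit of the iPSC and ES libraries of the same 2 tables, chosen after seeing the data, called 0 members. The replicate numbers only name libraries; the pairing is by system, whose stages were blocked throughout, and the counts without that block are those above. After quantile normalization within the Gatad2a-/- table, chosen after seeing the data, the count past 2-fold from day 6 to day 8 (4) was 1, and those of its other 4 comparisons did not change. Likeness without WT-2 was also added after seeing the data. Unknown depth limits every value under 1 FPKM.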
